A study of Mus musculus with 16 samples.

Results

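Complement genes were followed in mouse bone marrow-derived macrophages (BMDMs), and 8 were chosen: C1qa, C1qb, C1qc, C3, Cfb, Cfp, C3ar1 and C5ar1. They were picked by name for their roles in complement, as 8 of the 55487 genes in the count table. Of these 8, 7 were among the 12372 genes with enough counts to be tested, and Cfb was not, with at most 18 counts in a sample. BMDMs are macrophages grown in culture from bone marrow, here of wild-type Balb/c mice aged 8 weeks. They were treated with medium conditioned by 4T1 cells (CM), a mouse mammary tumor line, or with DMEM, the plain medium. Ruxolitinib (Rux) blocks signalling by the Janus kinases JAK1 and JAK2, while IKK-16 blocks the IKK complex upstream of NF-κB. The groups were DMEM (2 samples, labelled No CM), DMEM + Rux (3 samples, with no dose in the labels), CM (3 samples), CM + 0.5 μM Rux with a label of 4 h (3 samples, called CM + Rux), CM + 0.5 μM Rux with a label of 2 h (2 samples, called CM + Rux 2 h), and CM + 0.5 μM Rux + 0.8 μM IKK-16 (3 samples). The study's methods give a treatment of 4 h for RNA, and what the 2 h refers to is not stated. These are macrophages in culture without the tumor cells themselves, and nothing in the labels says whether samples of a group came from separate mice, so p-values measure only the spread between these samples.

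Complement is a cascade of proteins that tag microbes and dying cells for removal. C1q, built of A, B and C chains, recognizes bound antibody and dying cells and starts the classical pathway, and macrophages are a main source of it. All pathways meet at C3, whose cleavage leaves C3b on the target surface and frees the peptide C3a. Factor B (Cfb) binds C3b to form the convertase of the alternative pathway, and properdin (Cfp) stabilizes that convertase. The receptors C3aR1 and C5aR1 sense the peptides C3a and C5a and are carried by myeloid cells. C3 and Cfb are textbook targets of inflammatory signals through NF-κB and STAT factors.

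The C1q genes lie side by side on the minus strand of chromosome 4 (GRCm38) within 18675 bases, with C1qb (ENSMUSG00000036905) at chr4:136880129-136886187, C1qc (ENSMUSG00000036896) at chr4:136889804-136893065 and C1qa (ENSMUSG00000036887) at chr4:136895917-136898803. The gap between C1qb and C1qc measured 3616 bases and that between C1qc and C1qa 2851 bases. The other genes were spread over the genome and also lie on the minus strand, with C3 (ENSMUSG00000024164) at chr17:57203970-57228136, Cfb (ENSMUSG00000090231) at chr17:34856374-34862518, Cfp (ENSMUSG00000001128) at chrX:20925454-20931555, C3ar1 (ENSMUSG00000040552) at chr6:122847138-122856161 and C5ar1 (ENSMUSG00000049130) at chr7:16246743-16259540. C3 and Cfb share a chromosome without being neighbours.

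The 250 bases upstream of the RefSeq transcription starts of C1qb (chr4:136886201-136886450, minus strand, GRCm38.p6) and C3 (chr17:57228137-57228386, minus strand) are shown, since C1qb was the most abundant C1q chain per kilobase and C3 was called in both comparisons of CM with DMEM. Both are written 5′ to 3′ toward the start, and capitals mark matches to the motifs searched.
C1qb: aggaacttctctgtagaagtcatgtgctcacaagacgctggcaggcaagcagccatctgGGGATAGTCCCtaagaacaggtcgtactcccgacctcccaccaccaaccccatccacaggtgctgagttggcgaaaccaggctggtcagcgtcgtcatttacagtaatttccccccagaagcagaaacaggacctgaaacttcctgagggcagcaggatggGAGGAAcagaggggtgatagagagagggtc
C3: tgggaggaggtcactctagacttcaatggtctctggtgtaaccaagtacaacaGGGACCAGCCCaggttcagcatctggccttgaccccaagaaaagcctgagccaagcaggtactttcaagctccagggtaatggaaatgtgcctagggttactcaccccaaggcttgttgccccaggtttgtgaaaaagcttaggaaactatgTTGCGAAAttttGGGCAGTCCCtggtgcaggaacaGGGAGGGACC
In C1qb the capitals mark a stretch 191 bases before the start that matches the NF-κB motif (GGG, any 5 bases, CC) on both strands (first bases at -191 and -190, overlapping) and the PU.1 motif GAGGAA at -30. In C3 they mark NF-κB matches at -197 and -196 (overlapping, on opposite strands), -33 and -10, and a match to the C/EBP motif TTGCNNAA at -45. The RefSeq start of C1qb lies outside the gene as placed above (end at 136886187), so the C1qb positions are less certain. Promoter sequences were matched for 6 of the 8 genes, over 300 bases from 250 before to 50 after the start, and both strands were searched. An NF-κB match was present in 5 of the 6 (C1qb, C1qc, C3, C3ar1 and Cfp), against 50.8% of all 32851 promoters of that length, so the motif is common. The PU.1 motif was in 3 of the 6 (C1qb, C1qc and Cfp), against 28.3% of all promoters, the C/EBP motif in C3 alone of the 6, against 10.8%, and the AP-1 motif TGANTCA in C3ar1 alone, against 7.81%. The STAT motif TTCNNNGAA, found in 8.30% of all promoters, the ISRE motif (GAAA, any 2 bases, GAAA; 3.44%) and the MAF motif TGCTGAC (4.67%) had no match in the 6 windows. These are matches of letters in a window, not binding sites.

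The totals of the counts on genes ran from 18449388 to 46215853 fragments, and the complement genes held 0.354% to 0.475% of them. Levels are given as CPM, the fragment counts per 1000000 counted in the library, after scaling by relative log expression, and a gene was called changed at an adjusted p under 0.05 with a log2 fold change beyond 0.5. The macrophage markers (8 genes, among them Csf1r, Adgre1 and Lyz2) summed to between 40228 and 57098 CPM. Lyz2 made the largest part (28541 to 38036 CPM), and Cd14 varied from 1407 to 15920 CPM. Mertk was at only 4.58 to 32.0 CPM and Fcgr1 at 32.6 to 232 CPM. Markers of other cells were low in every sample, with at most 3.24 CPM for 7 neutrophil genes (Ly6g at 0 throughout), 1.45 CPM for 6 epithelial genes (Krt5 and Krt14 at 0), 0.233 CPM for 4 B cell genes (Pax5 at 0), 20.4 CPM for 4 fibroblast genes, and 13.1 CPM for 5 T and NK cell genes, nearly all of it Cd4, with Cd3g, Cd8a and Ncr1 at 0. The epithelial sum was 0.692 to 1.45 CPM in CM against 0 to 0.118 CPM in DMEM, and the neutrophil sum 1.72 to 3.24 against 0.286 to 0.296 CPM. Their part in the changes between CM and DMEM was not tested.

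**Figure D1:**
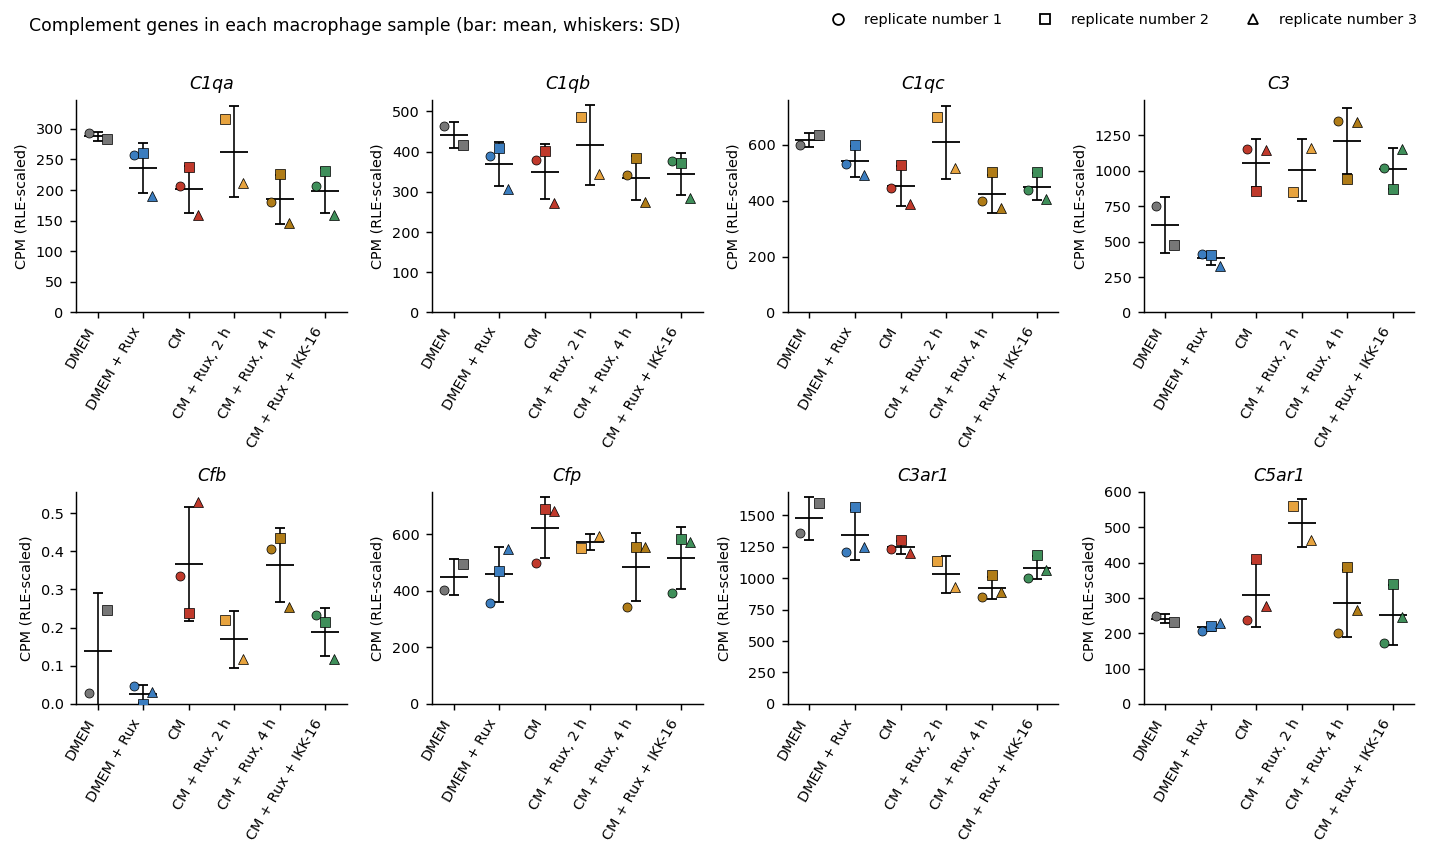
Level of each of the 8 complement genes in every sample, in CPM on linear axes that start at 0, by group. Points are samples with the marker giving the replicate number, long bars are group means and whiskers the SD (2 or 3 samples). C3 was lowest in DMEM + Rux and C5ar1 highest in CM + Rux 2 h, and Cfb was at most 0.529 CPM.

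C1qa, C1qb and C1qc were among the most abundant transcripts of these cells. In DMEM, per kilobase of exon, C1qb ranked 59th of the 12372 tested genes at 405 CPM per kilobase, C1qc 77th at 319 and C1qa 101st at 277. In CM they stood at ranks 126, 186 and 225. C1qb gave the largest share of the C1q signal per kilobase in every sample (39.0% to 45.3%), followed by C1qc (29.4% to 35.4%) and C1qa (24.0% to 28.1%). The order of the chains was thus the same in all 16 samples, and the ratio of C1qb to C1qa per kilobase ranged from 1.41 to 1.81. On plain counts, which do not allow for exon length, C1qc (1931 bases of exon) led instead with a median share of 46.0%, and C1qb (1088 bases) had 33.5% and C1qa (1040 bases) 20.2%.

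The C1q chains had lower means in CM than in DMEM, but none was called, where 45.0% of all tested genes were, and for C1qa and C1qc that depended on the setting. C1qa was at 294 and 283 CPM in DMEM and at 207, 237 and 159 CPM in CM, so that the groups did not overlap, with a log2 fold change of -0.52 (SE 0.22, adjusted p = 0.058). C1qb was at 464 and 417 CPM in DMEM and at 378, 401 and 272 CPM in CM, also without overlap, with a log2 fold change of -0.33 (SE 0.20, adjusted p = 0.16). C1qc was at 598 and 634 CPM in DMEM and at 444, 528 and 387 CPM in CM. Its log2 fold change of -0.44 (SE 0.16) had an adjusted p of 0.029 and did not reach the fold threshold. All differences are relative to the scaling, which moved the median of all genes up by 0.31 (log2) in this comparison compared with total counts alone. With total counts alone all 3 chains were called lower, at -0.84 for C1qa, -0.65 for C1qb and -0.76 for C1qc. Without CM replicate 2, C1qa (-0.65, adjusted p = 0.035) and C1qc (-0.57, adjusted p = 0.011) were called lower, and C1qa was also called with no filter on low counts (-0.51), with DESeq2 (-0.52) and in a model of only these groups (-0.53). In RNA of whole cultures, a smaller number of C1q-expressing cells and less C1q RNA per cell cannot be told apart.

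With ruxolitinib in both media, the difference between CM and DMEM was again negative for each chain, and none was called, where 47.3% of all tested genes were. C1qa was at 257, 261 and 190 CPM in DMEM + Rux and at 181, 227 and 146 CPM in CM + Rux, which overlapped (log2 fold change -0.35, SE 0.20, adjusted p = 0.14). C1qb was at 390, 409 and 307 CPM against 343, 383 and 276 CPM, also overlapping (log2 fold change -0.14, SE 0.18, adjusted p = 0.50). C1qc was at 529, 600 and 491 CPM against 399, 501 and 372 CPM, with a log2 fold change of -0.35 (SE 0.15) at an adjusted p of 0.049 and below the fold threshold. With total counts alone C1qa (-0.66) and C1qc (-0.66) were called lower here too, and without CM + Rux replicate 2 C1qa was called at -0.53 (adjusted p = 0.048). In a model with the replicate number as a block, C1qa had a log2 fold change of -0.36 (SE 0.0627, adjusted p = 1.5e-04). The block gave -0.14 for C1qb (SE 0.0605, adjusted p = 0.045) and -0.36 for C1qc (SE 0.0561, adjusted p = 6.1e-05). No chain reached the fold threshold there, so none was called. This comparison shares no sample with that of CM against DMEM.

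Neither inhibitor moved the C1q chains past the test, where 3.33% of all genes were called for ruxolitinib in CM, 7.74% for IKK-16 and 0.970% for ruxolitinib in DMEM. In CM + Rux against CM, the log2 fold changes were -0.12 for C1qa (SE 0.20, adjusted p = 0.89), -0.07 for C1qb (SE 0.18, adjusted p = 0.94) and -0.09 for C1qc (SE 0.15, adjusted p = 0.88). With IKK-16 added, C1qa was at 207, 231 and 160 CPM, C1qb at 377, 373 and 285 CPM and C1qc at 439, 501 and 407 CPM, which overlapped with CM + Rux in each case, with log2 fold changes of 0.11, 0.05 and 0.08. In DMEM + Rux against DMEM they were -0.29, -0.26 and -0.19, with an adjusted p of 1.0 for each chain. The interaction of ruxolitinib and CM was 0.17 for C1qa, 0.19 for C1qb and 0.10 for C1qc, and none was called, where 0.412% of all genes were.

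In CM + Rux 2 h the C1q chains had higher means than in CM + Rux, and C1qc was called, where 23.3% of all genes were called and 12.6% were called higher. C1qc was at 700 and 516 CPM in the 2 h samples, both above the 3 samples of CM + Rux (log2 fold change 0.52, SE 0.16, adjusted p = 0.022). C1qa was at 316 and 211 CPM (log2 fold change 0.51, SE 0.22, adjusted p = 0.088) and C1qb at 486 and 345 CPM (log2 fold change 0.32, SE 0.20, adjusted p = 0.23), and both overlapped with CM + Rux. The C1qc call was lost without CM + Rux 2 h replicate 2 (0.28), without CM + Rux replicate 1 (0.48) or replicate 3 (0.43), with total counts alone (0.46), and in a model of only these groups (0.54, adjusted p = 0.051). C1qa was called higher without CM + Rux 2 h replicate 3 (0.77), without CM + Rux replicate 2 (0.68), with no filter on low counts (0.51), and with the replicate number as a block (0.55, adjusted p = 3.8e-05, where 25.5% of all genes were called), although these groups share only 2 numbers.

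C3, the component at which the pathways meet, was higher in CM than in DMEM. C3 was at 753 and 476 CPM in DMEM, or 615 ± 196 CPM (SD, n = 2), and at 1155, 859 and 1145 CPM in CM, or 1053 ± 168 CPM (SD, n = 3). The lowest CM sample stood above the higher DMEM sample, and C3 rose 1.71-fold (log2 fold change 0.78, SE 0.22, adjusted p = 0.0081). Of the 7 tested complement genes, C3 alone was called in CM against DMEM, where 45.0% of all tested genes were called and 20.9% were called higher. A count of 1 of 7 genes is too small to set apart from these shares. With total counts alone 4 of the 7 were called, all lower, where 6142 of the 12372 tested genes were called. The C3 call was lost without DMEM replicate 2 (0.48, adjusted p = 0.13) and with total counts alone (0.47, adjusted p = 0.11), while without DMEM replicate 1 the log2 fold change was 1.14.

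In the presence of ruxolitinib, the difference in C3 between the media was 3.17-fold. C3 was at 411, 403 and 330 CPM in DMEM + Rux and at 1347, 943 and 1340 CPM in CM + Rux. Every CM + Rux sample was more than 2 times as high as any DMEM + Rux sample, and C3 was called higher (log2 fold change 1.66, SE 0.20, adjusted p = 5.9e-06). Of the 7 tested complement genes, C3 and C3ar1 were called in CM + Rux against DMEM + Rux, the first higher and the second lower, where 47.3% of all genes were called, 22.3% higher and 25.0% lower. The C3 call held under each of the 13 alternatives run, with log2 fold changes of 1.37 to 1.82. By level per kilobase C3 ranked 479th of the tested genes in DMEM + Rux and 180th in CM + Rux.

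Ruxolitinib alone went with less C3 in DMEM, with a log2 fold change of -0.69 (SE 0.22), and the groups did not overlap. With an adjusted p of 0.38 (unadjusted p = 0.0069) C3 was not called, and none of the 7 tested complement genes was called in DMEM + Rux against DMEM, where 0.970% of all genes were. C3 was called with no filter on low counts (-0.69, adjusted p = 0.0076, where 0.735% of genes were) and with the replicate number as a block (-0.69, SE 0.14, adjusted p = 0.026, where 1.25% of genes were), although DMEM holds only 2 of the numbers. Its log2 fold change was -0.32 without DMEM replicate 1 and -0.98 without DMEM replicate 2. In CM, C3 was not lower with ruxolitinib, at 1210 ± 231 CPM (SD, n = 3) in CM + Rux against 1053 ± 168 CPM in CM (log2 fold change 0.20, SE 0.20, adjusted p = 0.75). None of the 7 genes was called in CM + Rux against CM, where 3.33% of all genes were called, or 6.02% with the replicate number as a block. The test of the difference between these effects of ruxolitinib (the interaction) gave 0.89 for C3 (SE 0.29, unadjusted p = 0.0091, adjusted p = 0.26), where 0.412% of all genes were called. With the replicate block the C3 interaction was 0.88 (SE 0.19, adjusted p = 0.020) and was called, where 3.59% of all genes were called, but only 2 replicate numbers are present in all 4 groups. The comparisons of ruxolitinib with its control share the CM or DMEM samples with that of CM against DMEM.

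The C3 levels with IKK-16 and at 2 h overlapped with those in CM + Rux. With IKK-16 added to CM + Rux, C3 was at 1020, 868 and 1155 CPM, or 1014 ± 144 CPM (SD, n = 3) (log2 fold change -0.25, SE 0.20, adjusted p = 0.43). None of the 7 tested complement genes was called in CM + Rux + IKK-16 against CM + Rux, where 7.74% of all genes were. In CM + Rux 2 h, C3 was at 851 and 1158 CPM (log2 fold change -0.27 against CM + Rux, SE 0.22, adjusted p = 0.36). The neighbouring groups among the 4 with CM overlapped in C3, and all their samples lay above those of DMEM and of DMEM + Rux.

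**Figure D2:**
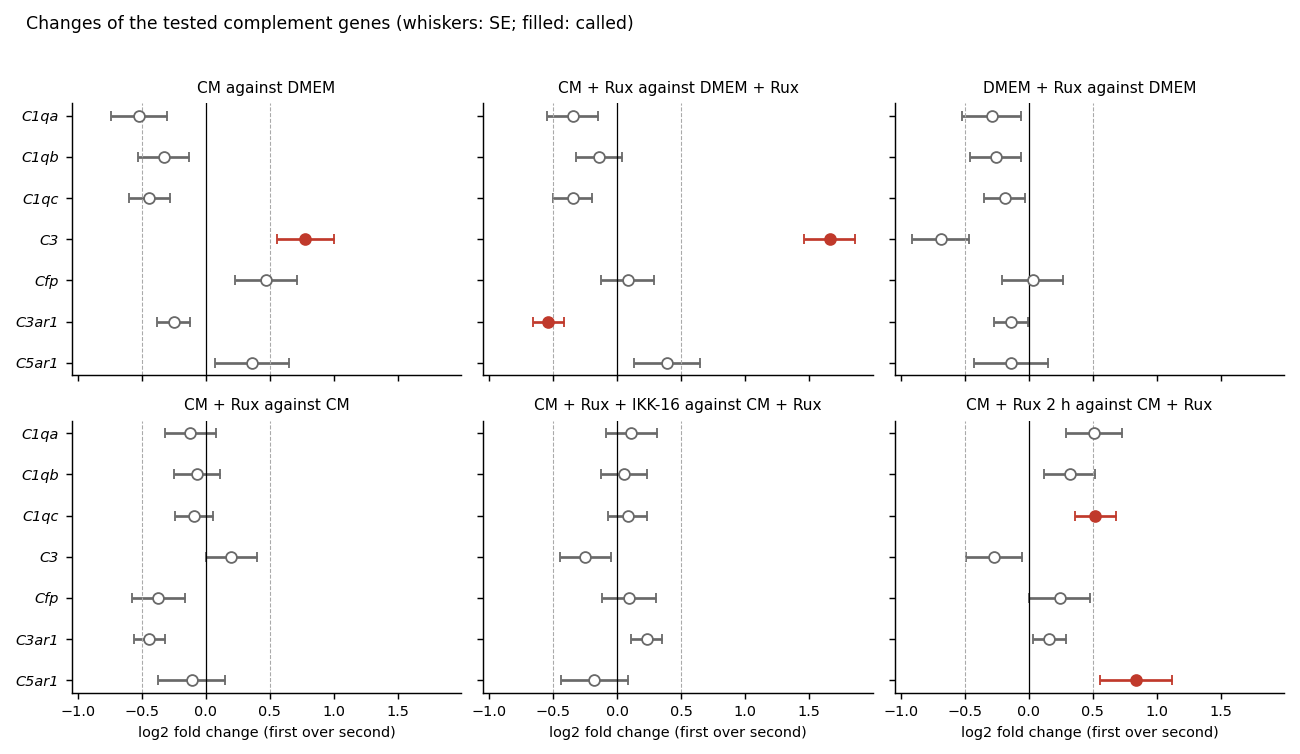
Log2 fold change of the 7 tested complement genes in 6 comparisons, with the SE as whiskers and filled points for called genes, and dashed lines at the fold threshold. C3 was called higher in both comparisons of CM with DMEM, C3ar1 lower in CM + Rux against DMEM + Rux, and C1qc and C5ar1 higher at 2 h. The whiskers are from the model without the replicate block. With total counts alone the C3 call in CM against DMEM and the C1qc call at 2 h were lost. Cfp then turned negative in CM + Rux against DMEM + Rux, where C1qa and C1qc became called lower. In CM against DMEM that scaling called C1qa, C1qb, C1qc and C3ar1 lower.

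Cfb, the partner of C3b, was close to the limit of detection. It had 1 and 6 counts in the DMEM samples, 1, 0 and 1 in DMEM + Rux, 6, 8 and 13 in CM, 8 and 2 in CM + Rux 2 h, 15, 18 and 5 in CM + Rux, and 9, 7 and 4 with IKK-16. The mean level was 0.367 CPM in CM and 0.365 CPM in CM + Rux, against 0.138 CPM in DMEM. In DMEM + Rux every sample was at or below a floor of 3 counts per library, and against the highest of these floors (0.139 CPM) Cfb was at least 2.63-fold higher in CM + Rux. Without the filter on low counts, that difference was called (adjusted p = 0.00016, where 27.0% of 24476 genes were called), and CM against DMEM was not (adjusted p = 0.14). CM + Rux + IKK-16, at 0.232, 0.214 and 0.117 CPM, lay below CM + Rux, at 0.405, 0.436 and 0.254 CPM, without overlap, but the difference did not pass (adjusted p = 0.46).

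Cfp, which stabilizes the convertase, was abundant in all groups, and no comparison called it. It was at 405 and 494 CPM in DMEM and at 500, 691 and 683 CPM in CM, which did not overlap but differed by little between the nearest samples (log2 fold change 0.47, SE 0.24, adjusted p = 0.10). In CM + Rux it was at 344, 554 and 555 CPM (log2 fold change against CM -0.37, SE 0.21, adjusted p = 0.47), and with IKK-16 at 391, 585 and 572 CPM (0.09, SE 0.21, adjusted p = 0.82). With the replicate number as a block, CM + Rux against CM gave -0.38 (SE 0.0718, adjusted p = 0.0029), below the fold threshold. DMEM + Rux, at 357, 470 and 550 CPM, was close to DMEM, with a log2 fold change of 0.03 that became -0.09 with the replicate block. Against DMEM + Rux, CM + Rux differed by 0.08, or by -0.23 with total counts alone, and the interaction was -0.40 (SE 0.32, adjusted p = 0.88). Per kilobase Cfp ranked 109th of the tested genes in DMEM and also 109th in CM.

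C3ar1, the receptor of C3a, ranked 70th per kilobase in DMEM, the group with its highest mean. It was at 1356 and 1596 CPM in DMEM, at 1207, 1567 and 1246 CPM in DMEM + Rux, and at 1233, 1302 and 1200 CPM in CM. CM + Rux had the lowest levels, at 852, 1023 and 887 CPM, below every sample of these 3 groups. With ruxolitinib in both media C3ar1 fell in CM, 1.46-fold (log2 fold change -0.54, SE 0.12, adjusted p = 0.0012). Between CM and DMEM the log2 fold change was -0.25 (SE 0.13, adjusted p = 0.12), and between CM + Rux and CM it was -0.44 (SE 0.12, adjusted p = 0.057), without overlap in either. With the replicate number as a block, CM + Rux against CM gave -0.44 (SE 0.0592, adjusted p = 2.4e-04), below the fold threshold. The call in CM + Rux against DMEM + Rux was below the fold threshold without CM + Rux replicate 1 (-0.49) and without DMEM + Rux replicate 2 (-0.42), both with an adjusted p of 0.007, and C3ar1 was called lower in CM + Rux against CM without CM + Rux replicate 2 (-0.52).

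With IKK-16, C3ar1 was at 1002, 1183 and 1066 CPM, between CM + Rux and CM. The log2 fold change against CM + Rux was 0.23 (SE 0.12, adjusted p = 0.21), and the groups overlapped. With the replicate number as a block it was 0.24 (SE 0.0591, adjusted p = 0.0095), below the fold threshold. The 2 h samples, at 1135 and 926 CPM, also overlapped with CM + Rux (log2 fold change 0.16, SE 0.13, adjusted p = 0.36). The interaction of ruxolitinib and CM was -0.30 for C3ar1 (SE 0.18, adjusted p = 0.75).

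C5ar1, the receptor of C5a, stood out in the 2 h samples. It was at 560 and 464 CPM there, above every other sample, and at 201, 388 and 267 CPM in CM + Rux, a rise of 1.79-fold (log2 fold change 0.84, SE 0.28, adjusted p = 0.031). With C1qc, it made 2 of 7 tested complement genes called higher in CM + Rux 2 h against CM + Rux, where 23.3% of all genes were called and 12.6% were called higher. The C5ar1 call was lost when either 2 h sample or CM + Rux replicate 1 or 3 was left out, at log2 fold changes of 0.64 to 0.97 and adjusted p-values of 0.063 to 0.17. In the 2 h samples the dendritic cell markers summed to 8.04 to 12.3 CPM against 2.02 to 2.14 CPM in CM + Rux, nearly all of it from Zbtb46, while Flt3, Xcr1 and Clec9a were at most 0.246 CPM in any sample. Their part in the C5ar1 difference was not tested.

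In the other groups C5ar1 varied widely among samples with CM and little without. It was at 250 and 231 CPM in DMEM, at 205, 220 and 229 CPM in DMEM + Rux, at 237, 410 and 278 CPM in CM and at 171, 340 and 245 CPM with IKK-16. The SD was 90.2 CPM in CM (n = 3) and 13.5 CPM in DMEM (n = 2). Within each group with CM the sample numbered 2 was the highest. Neither the 5 remaining comparisons nor the interaction (0.03) called it, with log2 fold changes of 0.36 for CM against DMEM (SE 0.29, adjusted p = 0.30), -0.11 for CM + Rux against CM, -0.18 with IKK-16, -0.14 for DMEM + Rux against DMEM, and 0.39 for CM + Rux against DMEM + Rux (SE 0.26, adjusted p = 0.20).

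Some of the complement genes also differed between replicate numbers in a similar way from group to group. The sample numbered 3 had the lowest level of each C1q chain in all 5 groups that hold one, at 0.668 to 0.732 of the mean of the other samples for C1qa, 0.698 to 0.769 for C1qb and 0.736 to 0.871 for C1qc. For Cfp the sample numbered 1 was lowest in all 5 groups that hold one, at 0.621 to 0.819 of the others. For C3ar1 the sample numbered 2 was highest in all 6 groups (1.07 to 1.28), and for C3 it was lowest in 5 of the 6, with DMEM + Rux as the exception. C5ar1 and Cfb had no number that was lowest or highest in all of its groups. For C5ar1 number 2 was highest in the 4 groups with CM, and number 1 was lowest in 4 groups and highest in 1. For Cfb number 2 was lowest in 2 groups and highest in 3. The labels do not say what a number stands for.

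**Figure D3:**
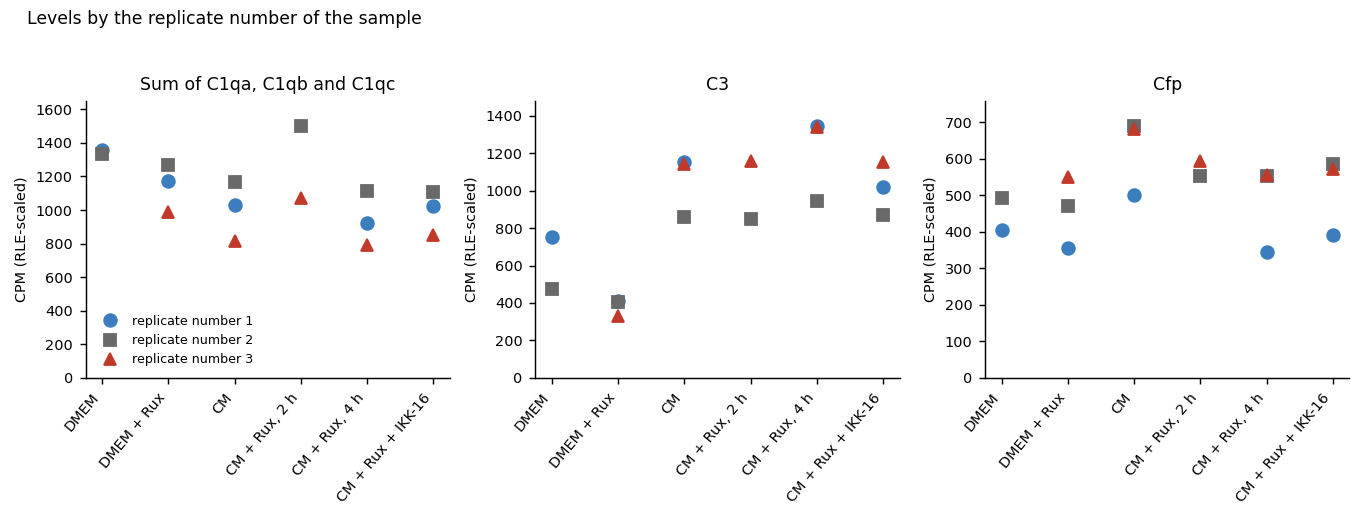
Level in CPM (linear axes from 0) of the summed C1q chains, C3 and Cfp in each of the 16 samples, by group and replicate number. The C1q sum was lowest in replicate number 3 in all 5 groups that have it, and Cfp was lowest in replicate number 1 in all 5 groups that have it.

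Across the 16 samples the C1q chains followed each other closely, with Pearson correlations of log2(CPM + 1) of 0.96 (C1qa and C1qb), 0.95 (C1qa and C1qc) and 0.86 (C1qb and C1qc). C3 and C3ar1 had a correlation of -0.71. The samples share groups and replicate numbers, so these values only describe the set. Of all tested genes, Fcrls (0.936), Aif1 (0.924) and Smc3 (0.919) were most like C1qa, Fcrls (0.941), Col14a1 (0.884) and Smc3 (0.884) most like C1qb, and Fxyd2 (0.952), Gsn (0.951) and Aif1 (0.929) most like C1qc. For the sum of the chains they were Fcrls (0.933), Aif1 (0.932), Smc3 (0.931), Gsn (0.917) and Fxyd2 (0.911). Aif1 encodes IBA1, a widely used marker of macrophages and microglia.

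The genes most like the other members differed from these. C3 was followed by F830208F22Rik (0.971), Wdr74 (0.962) and Gbp2 (0.953), the last an interferon-induced GTPase. Cfp was followed by Wdr83os (0.942), Ecm1 (0.926) and Atrnl1 (0.888), C3ar1 by Fermt3 (0.943), Rnd3 (0.907) and Adap2 (0.904), and C5ar1 by Clint1 (0.919), Arf2 (0.903) and Necap2 (0.900).

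Of 46 other complement genes that were listed by role, 15 were tested. These were 4 of 8 of the classical pathway, 1 of 8 of the lectin pathway, 3 of 13 regulators and 7 of 9 receptors, and none of 2 genes of the alternative pathway and C5 or of 6 terminal components. The genes Mbl1, Mbl2, Colec10, Cfd, C6, C8a, C8b, C4bp, Cfi, Cd55b and Cpn2 had 0 counts in all 16 samples. Hc, which encodes C5, had at most 5 counts in a sample, and Cfd, the protease factor D, is among those without counts. Fcna, which encodes ficolin A and was the only lectin pathway gene tested, was at 7.93 to 15.1 CPM and in no comparison past the test. The regulators tested were Cr1l, which encodes a membrane inhibitor of C3 cleavage (55.3 to 83.4 CPM), Cd59a, which encodes an inhibitor of the terminal complex (4.76 to 8.42 CPM), and Cd55, which encodes decay-accelerating factor (0.334 to 1.17 CPM). None of these regulators was called in any comparison, and Cr1l was below the fold threshold at 2 h against CM + Rux (log2 fold change 0.32, SE 0.091, adjusted p = 0.013).

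In CM against DMEM, 2 of these 15 genes were called higher and none lower, where 45.0% of all tested genes were called and 20.9% were called higher. The median log2 fold change was 0.24 against -0.005 over all tested genes. Itgam, the alpha chain of complement receptor 3, rose from 101 to 119 CPM in DMEM to 188 to 266 CPM in CM (log2 fold change 0.99, SE 0.23, adjusted p = 0.0021). C1ra, a protease that C1q activates, was at 12.8 ± 1.59 CPM (SD, n = 3) with CM and 9.04 ± 0.121 CPM (SD, n = 2) with DMEM alone, just at the fold threshold (log2 fold change 0.50, SE 0.18, adjusted p = 0.025). The C1ra call was lost under 7 of 12 alternatives, among them each DMEM replicate left out and the replicate block (0.43, adjusted p = 0.021). C1ra has a close copy, C1rb, and fragments aligned to both were not counted, so its level is uncertain. With ruxolitinib in both media, 1 of the 15 was called higher and none lower (median 0.10), where 47.3% of all genes were called and 22.3% were called higher. Itgam rose by a log2 fold change of 0.70 (SE 0.20, adjusted p = 0.0073), a call lost without CM + Rux replicate 2 (0.47) and with total counts alone (0.39).

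**Figure D4:**
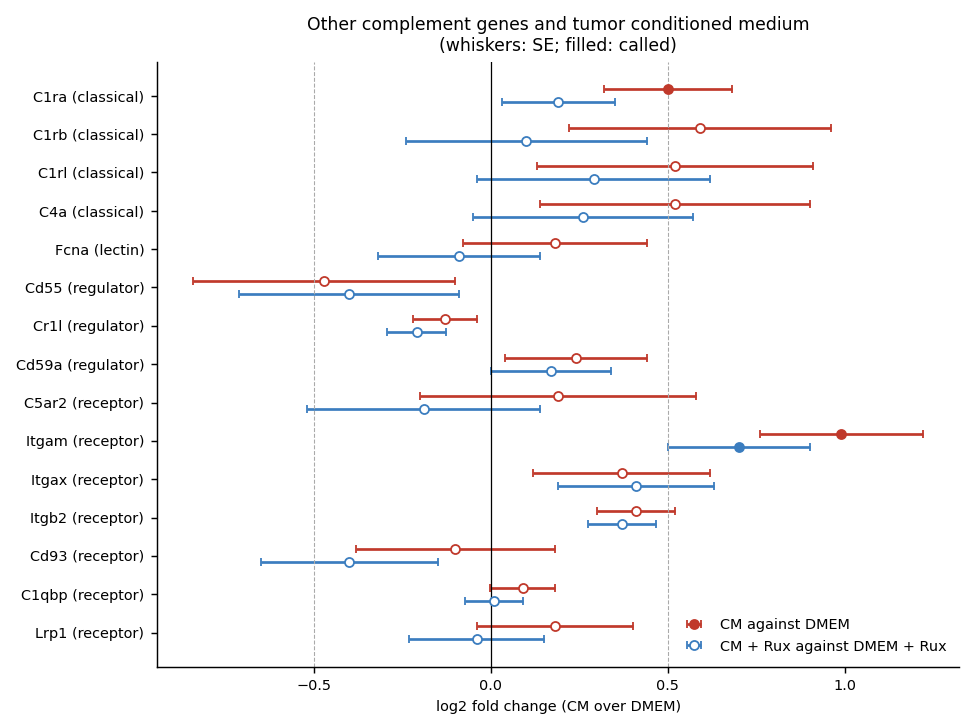
Log2 fold change of the 15 other complement genes tested, by role, for CM against DMEM and for CM + Rux against DMEM + Rux, with the SE as whiskers and filled points for called genes. The whiskers are from the model without the replicate block. Itgam was called higher in both and C1ra higher in the first. The difference between these comparisons was not called for any of the 15 genes, and with total counts alone the C1ra call and the Itgam call with ruxolitinib were lost.

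In CM + Rux 2 h against CM + Rux, 1 of the 15, C5ar2, was called higher and none lower (median 0.10), where 23.3% of all genes were called and 12.6% were called higher. C5ar2, the second receptor of C5a, was at 4.64 ± 1.02 CPM (SD, n = 2) at 2 h and 1.52 ± 0.592 CPM (SD, n = 3) in CM + Rux (log2 fold change 1.57, SE 0.34, adjusted p = 0.0028). Both receptors of C5a were thus called higher in the 2 h samples, C5ar2 at a level close to the filter. None of the 15 was called in CM + Rux against CM (median -0.03, with 3.33% of all genes called), in CM + Rux + IKK-16 against CM + Rux (-0.09, with 7.74% called), in DMEM + Rux against DMEM (0.10, with 0.970% called) or in the interaction (-0.23, with 0.412% called).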

How the data were processed

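The 16 BMDM samples were placed in groups by their titles. Adapter and quality trimming (Trimmomatic 0.33), alignment to GRCm38 (HISAT2 2.1.0) and counting per gene (featureCounts 1.6.2, Ensembl 100 annotation) were done by the authors. Per the file headers, counting required a mapping quality of at least 10 and both ends mapped, and it was reverse-stranded. The deposited values are whole-number counts of fragments per gene, without scaling or filter, and fragments with several alignments or genes were not counted, so genes with near-identical copies are uncertain. Symbols and positions were taken from GENCODE M21 (GRCm38), which named 55141 of the 55487 identifiers. The 346 others held at most 0.0459% of a sample's counts.

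Scaling was by relative log expression, and the filter required over 1 CPM in 2 or more samples, which 12372 genes passed. The quasi-likelihood test of edgeR 4.0.16 (limma 3.58.1, R 4.3.3) was run on 1 model of 16 samples and 6 groups, with Benjamini-Hochberg adjustment over all genes tested. A gene was called at an adjusted p under 0.05 and a log2 fold change beyond 0.5. The SE was the log2 fold change divided by the square root of F. The fit was tested on simulated data. Replicates differed beyond counting noise (chi-square divided by its degrees of freedom 13.2 to 50.3), so none was a copy. The floor of 3 counts covers counting error only. Tables and figures were made in Python 3.11.15 (pandas 2.3.3, numpy 2.4.6, and matplotlib in version 3.10.9). Promoters came from RefSeq (GRCm38.p6).

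The replicate numbers were checked as pairs by correlating deviations from the group means. Same-numbered samples of different groups had r of 0.00 to 0.61 (median 0.30), above 0.1 in 34 of 35 pairs, and differently numbered ones -0.41 to 0.11. The exception was the pair of DMEM and CM + Rux 2 h, which were not compared. Deviations within a group cancel out, so the values of differently numbered samples follow in part from those of same-numbered ones. The pairs are therefore not independent of each other. The comparisons with 3 pairs, each above 0.1, were taken as paired. These were ruxolitinib in CM, the addition of IKK-16, and CM with ruxolitinib against DMEM with it. Their values in text and figures are nonetheless from the model without pairing, unless the block is named. That model gave larger SEs, such as 0.203 for C1qa in CM + Rux against CM, where the block gave 0.0628. The block changed no call of the 7 tested complement genes in these comparisons. In the other comparisons and the interaction only 2 numbers are shared by all groups, which were not taken as paired. The block value stands in the report where it changed a call of a named gene. In a paired comparison it also stands where it changed a count by over 1.5 times. There it stands too where it brought the adjusted p of one of the 7 tested complement genes under 0.05.

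The 8 genes, the lists and the tests were chosen with earlier results of these data known. The text names the 8 genes, of the other complement genes the 3 called genes with the largest change in each direction and those of roles with up to 3 tested, and the 3 tested genes most correlated with each member (5 for the C1q sum). Alternatives were TMM scaling, all genes with a count, the filterByExpr filter, DESeq2 1.42.0, the replicate block, only the groups compared, each sample left out in turn and, for chain shares, plain counts. Scaling by total counts alone, and all alternatives for the other complement genes, were added after seeing the data. A listed complement gene is not reported here.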

Additional observations from a re-analysis of the deposited data

Results flagged for a closer look

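C3 is given here because the effect of ruxolitinib on it differed between CM and DMEM when the difference itself was tested with the replicate number as a block. The interaction was 0.88 on the log2 scale (SE 0.19, adjusted p = 0.020), with log2 fold changes of -0.69 in DMEM and 0.20 in CM. All 3 DMEM + Rux samples were below both DMEM samples, and the CM + Rux and CM samples overlapped. Only 2 replicate numbers are present in all 4 groups, so the numbers were not taken as pairing here. Without the block the interaction was 0.89 with an adjusted p of 0.26, and over single samples left out it ranged from 0.52 (without DMEM replicate 1) to 1.18 (without DMEM replicate 2).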

How the results depend on the processing

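Of 651 values of the 7 tested complement genes recomputed under the alternatives, 584 kept their direction and their side of the thresholds, 21 became called, 13 lost a call and 33 changed sign, and the cause was not tested. Other than with single samples left out, the sign changed for Cfp in DMEM + Rux against DMEM with the replicate block (-0.09) and in CM + Rux against DMEM + Rux with total counts alone (-0.23). In CM against DMEM, 2 complement genes were called with no filter on low counts, with DESeq2 and in a model of only the groups compared (C3, and C1qa at -0.51, -0.52 and -0.53), and 4 with total counts alone (C1qa, C1qb, C1qc and C3ar1, all lower, at -0.84, -0.65, -0.76 and -0.56). The number called was 4 in CM + Rux against DMEM + Rux with total counts alone (C3, C3ar1, C1qa and C1qc), and 1 in CM + Rux 2 h against CM + Rux with only the groups compared or total counts alone. C3 made 1 in DMEM + Rux against DMEM and 1 in the interaction, in both with no filter and with the replicate block, which gave -0.69 (adjusted p = 0.026) in the first. The block also called C1qa at 2 h (0.55, adjusted p = 3.8e-05), ended the C1ra call in CM against DMEM (0.43), and changed no other call of the 7 tested complement genes, of Itgam or of C5ar2. In these 4 cases only 2 replicate numbers are shared by all groups.

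Over all genes, CM + Rux against CM had 412 called, 685 with no filter and 745 with the replicate block. The interaction had 51, then 349 with no filter, 234 with DESeq2, 444 with the replicate block and 90 with total counts alone. With total counts alone, the split of calls in CM against DMEM was 1536 higher and 4606 lower (2584 and 2980 after scaling), in CM + Rux against DMEM + Rux 1699 and 4674 (2761 and 3096), and with IKK-16 727 and 350 (504 and 453). On plain counts the median chain shares were 20.2% for C1qa, 33.5% for C1qb and 46.0% for C1qc, in place of 25.9%, 41.7% and 32.0% per kilobase.

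With single samples left out, genes called ranged from 4828 to 5544 in CM against DMEM, 243 to 486 in CM + Rux against CM, 668 to 1029 with IKK-16, 103 to 115 in DMEM + Rux against DMEM, 5562 to 5818 in CM + Rux against DMEM + Rux, 2246 to 2900 at 2 h, and 17 (without DMEM replicate 1) to 114 (without DMEM replicate 2) for the interaction. Complement genes called ranged from 0 to 3 in CM against DMEM, 0 to 1 in CM + Rux against CM, 1 to 3 in CM + Rux against DMEM + Rux and 0 to 3 at 2 h, and were 0 in the rest. Values that changed sign spanned, in CM + Rux against CM, -0.29 to 0.02 for C1qa, -0.22 to 0.05 for C1qb, -0.23 to 0.03 for C1qc and -0.40 to 0.15 for C5ar1. With IKK-16 they spanned -0.04 to 0.28 for C1qa, -0.08 to 0.17 for C1qb, -0.0047 to 0.22 for C1qc, -0.11 to 0.26 for Cfp and -0.46 to 0.10 for C5ar1. For Cfp they spanned -0.12 to 0.18 in DMEM + Rux against DMEM and -0.08 to 0.27 in CM + Rux against DMEM + Rux, and for the interaction -0.0041 to 0.31 for C1qa, -0.04 to 0.22 for C1qc and -0.25 to 0.29 for C5ar1. A lone sample left in a group is assumed to vary like the other groups. Depth limits Cfb above all, with at most 18 counts in a sample.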
